A study of Lactuca sativa with 18 samples.

Results

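The 100 genes described here are those whose transcripts were most clearly raised in cold-stored midribs of the romaine lettuce cultivar Parris Island Cos (PC) while the same transcripts were lowered in the cultivar Clemente (CL). They were chosen from 46150 NCBI GeneIDs with measured values. For each GeneID the level was taken as log2(CPM + 1), where CPM is the usual count scaled to library total. The PC rise was the lowest day 3 level minus the highest day 0 level, the CL fall was the lowest day 0 level minus the highest day 3 level, and the smaller of the pair was the score. The 100 GeneIDs of highest score were kept. The PC and CL levels on both days therefore chose the genes and are given below as a description, with no test. The third cultivar, Tall Guzmaine (TG), took no part in the choice, so its change from day 0 to day 3 could be tested.

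Cut lettuce turns brown when phenolic compounds, made through the phenylpropanoid pathway, meet oxidising enzymes such as polyphenol oxidases and peroxidases in broken cells. Wounding is known to induce phenylalanine ammonia-lyase, the entry enzyme of that pathway, in lettuce midribs, and cold slows both steps. The study compared Lactuca sativa cultivars of different browning: TG is labelled high, PC low and CL medium, and CL was picked from the offspring of a PC by TG cross. Heads were stripped of wrapper leaves and stem, and midribs were cut into 2.5-cm pieces and kept at 5 °C until freezing on day 0, day 2 or day 3. All heads had been cooled after harvest, moved in a refrigerated truck and held cold before cutting, and no uncut pieces were among the groups used here, so time since cutting and time in storage cannot be told apart. Each cultivar had 2 libraries a day. Nothing in the labels says that these came from different heads, so the spread behind each p-value may be that of technical repeats.

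The 12 libraries of day 0 and day 3 held 35603537 to 59153901 counts. The day 2 columns could be computed almost entirely from the day 0 and day 3 columns and were left out. A name was found for 97 of the 100 genes, in every case a locus symbol, and the other 3 are given by GeneID. The sources used here give no product or function for these symbols, so no role is stated for any gene, and the midrib label could not be checked against tissue markers. All levels below are CPM on library sizes adjusted by TMM factors. The factors were 0.78 and 0.794 in the CL day 0 libraries and 0.977 to 1.17 in the other 10, so levels in CL day 0 were higher after this adjustment than on the raw total.

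The scores ran from 0.71 to 2.01 with a median of 0.94, and 40 genes scored at least 1, that is, had a gap of at least 2-fold on the CPM + 1 scale in both cultivars. The CL fall was the smaller gap, and so set the score, for 67 genes. Across all GeneIDs, 871 had a score above 0, and 2757 had the reverse pattern, a fall in PC and a rise in CL. Both counts are on the raw library total, so they are not a like comparison of the patterns. Without a scaling factor the median log2 change of all tested genes in CL was 0.37, against 0.04 with TMM factors. These counts were not taken on adjusted library sizes. Just inside the limit were LOC111887363, LOC111892410 and LOC111908850 with scores of 0.72, 0.71 and 0.71. Just outside were LOC111897251, LOC111882175 and LOC111921621 with 0.71, 0.71 and 0.70, so the limit separates genes of nearly equal score. All 100 genes passed the filter on low counts, which each could do through the group where it was high.

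Summed over the 100 genes, transcripts were scarce in PC on day 0, abundant in CL on day 0 and at closer levels in all cultivars on day 3. The sums in PC were 2597 and 891 CPM on day 0 and 8370.0 and 7803 CPM on day 3. In CL they were 63515 and 48246 CPM on day 0 and 15242 and 15439 CPM on day 3. TG, which the choice did not use, stood at 27009 and 26672 CPM on day 0 and 10082 and 11618 CPM on day 3. On both days the sums kept the order PC, TG, CL without overlap. The TG sums were lower on day 3 than on day 0, as the CL sums were. A sum is weighted to the most abundant genes, and gene by gene TG was not mostly above PC on day 3. TG day 3 was below PC day 3 without overlap for 34 of the 100 genes, against 23.8% of all tested genes. It was above PC day 3 for 23 of the 100 genes, against 22.8% of all tested genes. The genes took 4.96% and 3.83% of all counts in CL on day 0 against 0.29% and 0.104% in PC. These are whole-tissue samples, in which fewer cells of a type and less RNA per cell cannot be told apart.

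**Figure D1:**
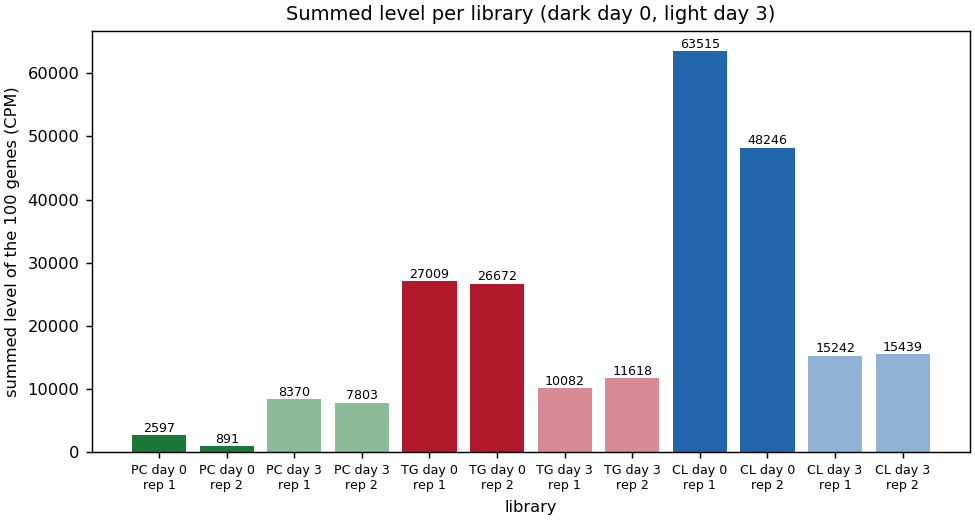
Summed level of the 100 genes (y axis, CPM on TMM-adjusted library size) in each of the 12 libraries (x axis), with 1 bar a library, dark for day 0 and light for day 3. The sums rise from 891 and 2597 CPM to 7803 and 8370.0 CPM in PC, and are lower on day 3 in TG and CL.

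The PC day 0 libraries differed from each other in these genes more than other replicates did. Replicate 1 was above replicate 2 for 94 of the 100 genes, against 49.8% of the 21757 genes tested, and at least 2-fold above it on the CPM + 1 scale for 49, against 4.51%. In CL on day 0 replicate 1 was above replicate 2 for 66 of the 100 genes, against 46.2% of all tested genes, and in TG on day 0 for 43 of the 100 genes, against 45.6% of all tested genes. The median absolute difference between replicates in log2(CPM + 1) was 0.95 for the 100 genes in PC on day 0, and 0.17 to 0.49 in the other 5 groups. The median fitted log2 change in PC was 2.60 with both libraries, 1.94 without replicate 2 and 3.73 without replicate 1. The size of the PC rise therefore depends on which day 0 library is read, and its direction does not, since the score sets every PC day 3 library above both. Had the choice been made without PC day 0 replicate 1, 50 of the 100 genes would have stayed among the top 100, and without replicate 2, 96.

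**Figure D2:**
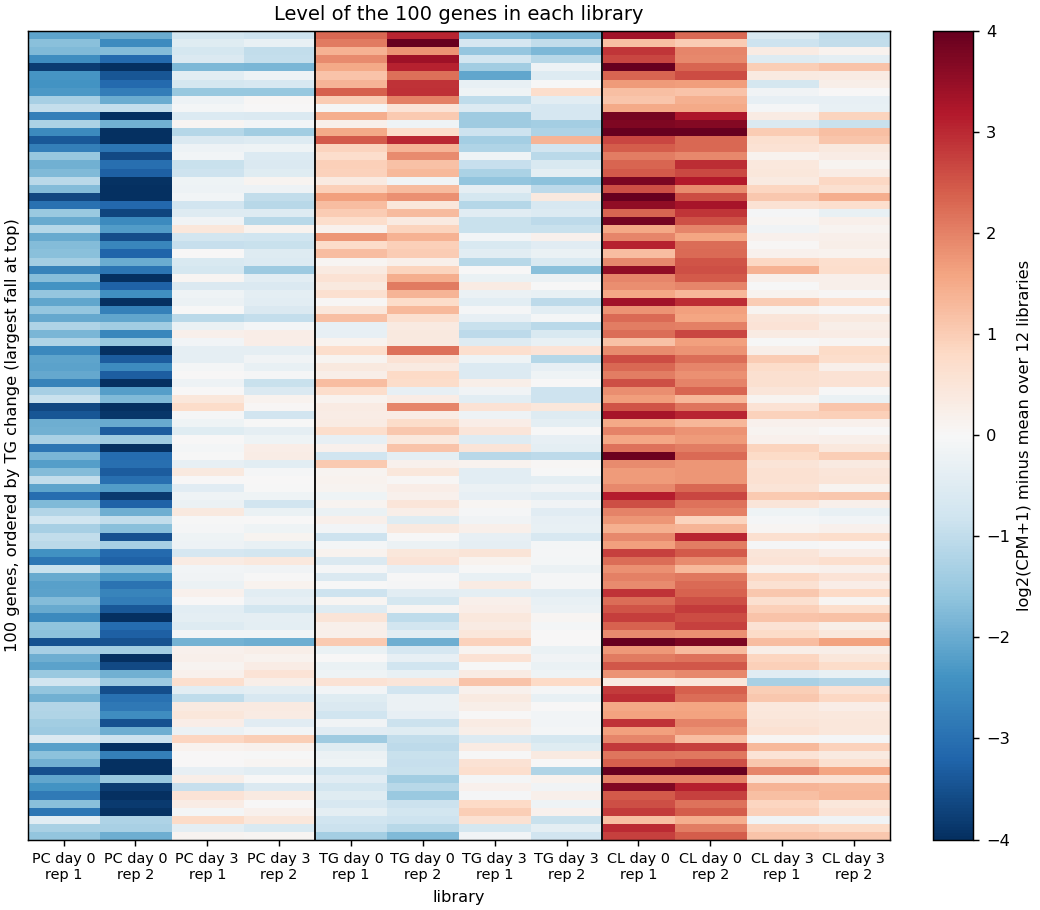
Level of each of the 100 genes (rows, ordered by their change in TG) in each library (columns), as log2(CPM + 1) minus the gene's mean over the 12 libraries, with colours capped at 4 in either direction. PC day 0 is blue and deeper in replicate 2, CL day 0 is red, and TG day 0 is red in the upper rows and pale or blue in the lower rows.

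The gene of highest score was LOC111878839. In PC it stood at 35.3 and 7.56 CPM on day 0 and at 165 and 161 CPM on day 3. In CL it went from 3414 and 2283 CPM to 303 and 451 CPM, so that the ratio of CL to PC means shrank from 133 on day 0 to 2.31 on day 3. LOC111917376 was next. It had 3.48 and 0 CPM in PC on day 0, where replicate 2 held no count, and 39.5 and 37.3 CPM on day 3. In CL it went from 1079.5 and 964 CPM to 198 and 151 CPM and stayed above PC on both days. LOC111878774 had nearly equal PC replicates, at 15.9 and 14.3 CPM on day 0 and 77.8 and 60.5 CPM on day 3. Its CL levels were 1545 and 1318 CPM on day 0 and 197 and 213 CPM on day 3. LOC111889409 went in PC from 0.603 and 0.144 CPM to 15.5 and 8.93 CPM and in CL from 168 and 141 CPM to 31.2 and 32.2 CPM.

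LOC111881488, the fifth by score, stood in PC at 0.464 and 0.0963 CPM on day 0 and 3.64 and 5.07 CPM on day 3, and in CL at 13.3 and 14.6 and then 2.03 and 2.36 CPM. Both PC libraries were above both CL libraries on day 3, the reverse of day 0. LOC111880600 went from 2.04 and 0.867 to 9.06 and 8.68 CPM in PC and from 107 and 87.2 to 21.6 and 18.3 CPM in CL. LOC111906468 went from 6.58 and 0.433 to 26.2 and 22.9 CPM in PC and from 332 and 246 to 63.6 and 49 CPM in CL. Both kept CL above PC on day 3. LOC111911889 met at nearly the same level, with PC at 6.03 and 6.37 CPM and CL at 6.65 and 6.47 CPM on day 3, from 0.695 and 0 CPM in PC and 27.3 and 37.5 CPM in CL on day 0. Over the 100 genes the fitted log2 change in PC ran from 1.09 to 9.50, the top value belonging to a gene with no count in PC on day 0 and depending on the prior count. In CL it ran from -4.98 to -1.16, with a median of -1.79. In the model 97 of the 100 passed the threshold for a rise in PC and 71 for a fall in CL, where 21.5% and 15.5% of all tested genes did. The choice used these contrasts, so nothing is read from the counts.

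No count was found in either PC day 0 library for 3 of the genes. LOC111919497 had 2.07 and 1.88 CPM in PC on day 3, at least 13.9-fold above a floor of 3 fragments per library, taken as 6 counts because both mates of a pair appear to be counted. In CL it stood at 209.8 and 152 CPM on day 0, at least 1277-fold above the same floor in PC, and at 25.3 and 33 CPM on day 3. LOC111903272 reached 0.82 and 0.965 CPM in PC on day 3, at least 6.29-fold above the floor. LOC111917415, named after its values were seen, reached 0.891 and 0.627 CPM, at least 5.36-fold above it. In CL on day 0 LOC111903272 had 4.52 and 4.45 CPM and LOC111917415 had 18.3 and 9.19 CPM. These bounds cover counting error of the zeros only.

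The gene with the most counts in the set, LOC111903698, made up 1.3% and 1.03% of all counts in CL on day 0 and 1.44% and 1.11% in TG, but 0.12% and 0.0429% in PC. Its levels on day 0 were 1070.1 and 368 CPM in PC, 14578 and 11393 CPM in TG and 16665 and 12984 CPM in CL. On day 3 they were 2598 and 2461 CPM in PC, 3966 and 4869 CPM in TG and 4831 and 4935 CPM in CL. TG and CL overlapped on both days and PC was below both. LOC111920812 had 64.9 and 2.41 CPM in PC on day 0, 3816 and 5605 CPM in TG and 4482 and 3455 CPM in CL. On day 3 its TG libraries lay far apart at 273 and 1794 CPM, around the PC values of 462 and 484 CPM and the CL values of 1079 and 1490.0 CPM. LOC111879199 was highest in CL on day 0 at 6347 and 3839 CPM, against 649.7 and 376 CPM in TG and 37.5 and 2.05 CPM in PC, and stood on day 3 at 461 and 525 CPM in CL, 126 and 95.5 CPM in TG and 103 and 84.9 CPM in PC. LOC111901153 had 8 counts in PC day 0 replicate 2, with PC at 18.2 and 0.193 CPM on day 0 and 223 and 122 CPM on day 3. Its CL day 0 libraries differed as well, at 4111 and 1473 CPM, before 503 and 659 CPM on day 3. Without LOC111903698 the summed CPM of the other 99 genes still ran from 524 in PC day 0 replicate 2 to 46849.5 in CL day 0 replicate 1.

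The rule set the direction and a least size of change within PC and within CL. It compared no level of one cultivar with another and used no TG level. On day 0 both CL libraries were above both PC libraries for 100 of the 100 genes, against 35.7% of all tested genes. The CL minus PC difference on day 0 is the PC rise plus the CL fall plus the difference on day 3. The rule required the rise and the fall, so this order was largely set by the choice and 35.7% is not a like baseline. TG lay between PC and CL, above both PC libraries and below both CL libraries, for 84 of the 100 genes, against 10.8% of all tested genes. That share also requires CL to be above PC, as it was for all members. Of the 7767 tested genes with CL above PC, 2344 had TG between. Those genes were not matched to the members for the size of the gap, and a wider gap leaves more room for TG. The median absolute difference of CL and PC on day 0 in log2(CPM + 1) was 4.72 in the 100 genes and 0.57 in all tested genes. Whether TG lay between more often than in genes of equal gap was not tested. CL day 0 had the highest mean of the 6 groups for 93 of the 100 genes, against 21.4% of all tested genes, and PC day 0 had the lowest for 97 of the 100 genes, against 27.1% of all tested genes. The rule alone kept CL day 3 and PC day 0 from being highest, and PC day 3 and CL day 0 from being lowest. These ranks were thus partly fixed by the choice, and the shares of all tested genes are not a like baseline for them. The CL day 3 libraries were also above both PC day 0 libraries for 99 of the 100 genes, against 38.2% of all tested genes. The PC rise required by the rule enters this order too, so 38.2% is not a like baseline either. The median difference in log2(CPM + 1) on day 0 was 4.72 for CL minus PC and 2.76 for TG minus PC. Among the 97 genes with counts in PC on day 0, the CL mean was at least 10-fold the PC mean for 89. This count was not taken over all tested genes, where the median difference of CL minus PC in log2(CPM + 1) was -0.02. These libraries also chose the genes, so the day 0 differences between CL and PC are a description, without a test.

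On day 3 the cultivars were much closer. The median difference in log2(CPM + 1) was 0.64 for CL minus PC and -0.07 for TG minus PC. The CL mean was within 2-fold of the PC mean for 69 of the 100 genes, and the TG mean for 85. These counts were not taken over all tested genes, which lay closer still by the median absolute difference in log2(CPM + 1). Between CL and PC it was 0.70 in the 100 genes and 0.20 in all tested genes, and between TG and PC 0.37 and 0.20. CL was still above PC without overlap for 80 of the 100 genes, against 26.4% of all tested genes, and the reverse held for 10 of the 100 genes, against 25.2% of all tested genes. The median absolute difference between CL and PC in log2(CPM + 1) over all tested genes was 0.57 on day 0 and 0.20 on day 3, so the gap was narrower on day 3 over all tested genes as well. The rule set the direction in which PC and CL moved and ranked genes by how far. Every member had a PC rise of at least 0.72 and a CL fall of at least 0.71 by the score. A smaller CL minus PC difference on day 3 was therefore built into the choice, though the difference that remained was not fixed.

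**Figure D3:**
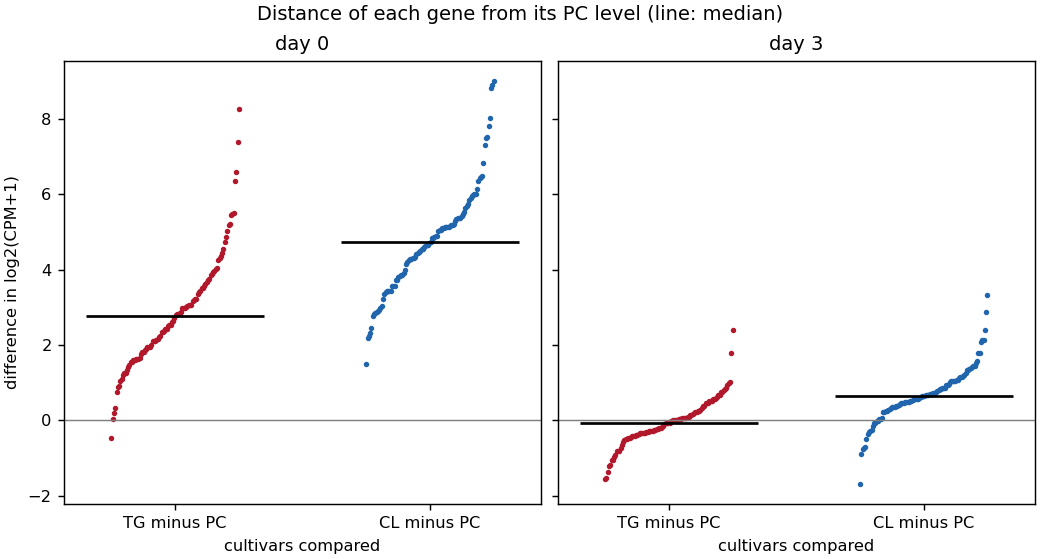
Difference in log2(CPM + 1) from PC (y axis) for TG and CL on day 0 and day 3 (panels), with 1 point a gene, means of 2 libraries, points spread sideways by rank and a line at the median. On day 0 the medians are 2.76 for TG and 4.72 for CL, and on day 3 -0.07 and 0.64.

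The 10 genes with PC above CL on day 3 differed in the size of that gap. The group means were 0.976 and 0.869 CPM in PC and CL for LOC111889100, 294 and 229 CPM for LOC111909432, and 5.26 and 2.68 CPM for LOC111893118. The genes of this paragraph were named after their values were seen. GeneID_111901946 was at 34.4 and 21 CPM in PC and 75.6 and 81.1 CPM in CL on day 0, and at 94.1 and 70.6 CPM in PC and 23.6 and 25.8 CPM in CL on day 3, so CL was above PC on day 0 and below it on day 3. In TG it stood above CL on both days, at 88.9 and 82.9 CPM and 131 and 103 CPM, and it was the only member with its highest mean in TG on day 3. LOC111906555 was the only gene of the 100 with both TG day 0 libraries below both PC day 0 libraries, at 22 and 30.0 CPM against 40.6 and 32.6 CPM, and its day 3 levels were 111 and 119.6 CPM in PC, 63.5 and 59 CPM in CL and 41.4 and 37.1 CPM in TG. LOC111891785 was higher in TG than in CL on day 0, at 34.8 and 50.0 CPM against 14.7 and 14.1 CPM.

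In TG, 24 of the 100 genes fell from day 0 to day 3 and 2 rose (edgeR quasi-likelihood test, adjusted p under 0.05 over all tested genes), while 74 did not pass. Of all 21757 tested genes 13.8% fell and 13.6% rose. The fitted change was below 0 for 66 of the 100 genes, against 48.4% of all tested genes. All 24 falls were at least 2-fold and 13 were at least 4-fold. The median log2 change in TG was -0.65 for the 100 genes and 0.01 for all tested genes. At an unadjusted p under 0.05, 35 fell and 6 rose, where 19.8% and 20% of all tested genes did. By library, both TG day 3 values were below both day 0 values for 55 of the 100 genes, against 31.6% of all tested genes, and above them for 20 of the 100 genes, against 33.6% of all tested genes. The 24% that fell lay above the share of all tested genes and the 2% that rose below it, and no test of the set was made because its members were chosen with results known. The shares were not matched for level. The median of the mean CPM over the 12 libraries was 38.9 for the 100 genes and 8.33 for all tested genes.

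The number that passed depended on single libraries. Without TG day 3 replicate 1, 8 genes fell and 0 rose, with 28 and 3 at an unadjusted p under 0.05 in edgeR, and without TG day 0 replicate 2, 15 fell and 1 rose. Without PC day 0 replicate 1 or without replicate 2, 44 fell and 10 rose in TG, with the same TG libraries. The fit shares 1 estimate of the spread over all 6 groups, and with 1 PC day 0 library the difference between the pair no longer enters it. All 24 falls were among the 44 in both cases. DESeq2 called 30 falls, 23 of them shared, and 4 rises.

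**Figure D4:**
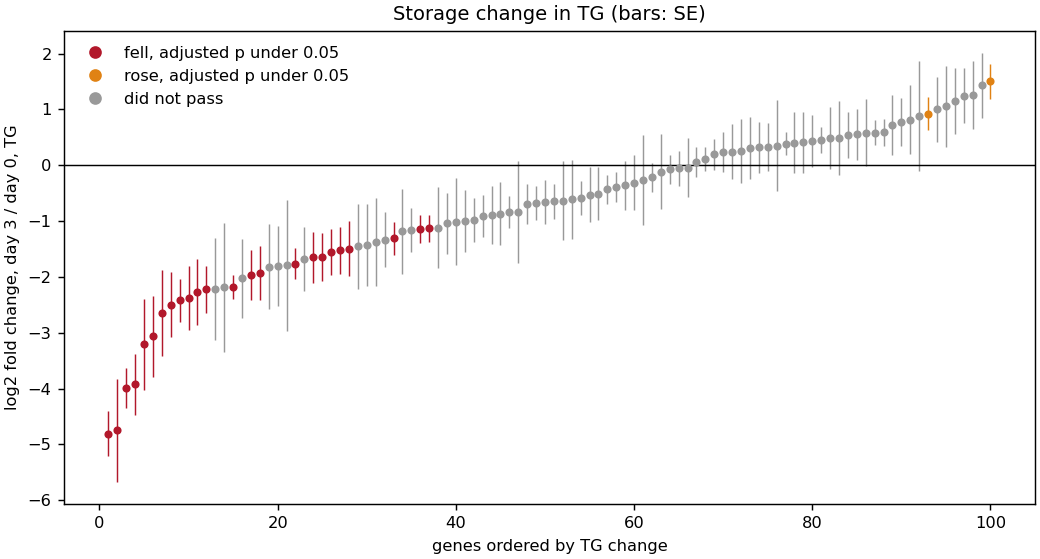
Fitted log2 fold change from day 0 to day 3 in TG (y axis) with its standard error (bars) for the 100 genes in order of that change (x axis). The 24 genes that fell (red) lie between -4.81 and -1.13, the 2 that rose (orange) at 0.92 and 1.50, and the genes that did not pass (grey) between -2.21 and 1.44.

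The largest fall in TG was that of LOC111889872. It stood in TG at 106 and 179 CPM on day 0 and 5.44 and 4.73 CPM on day 3, a log2 change of -4.81 (SE 0.40, adjusted p = 8.94e-05). In CL it went from 219.7 and 103 to 13.3 and 9.85 CPM, while PC stood at 3.99 and 4.53 and then 12.1 and 11.1 CPM. TG overlapped CL on day 0 and was below both PC and CL on day 3. LOC111878908 was higher in TG than in CL on day 0, at 23.3 and 99 CPM against 12.3 and 10.6 CPM, and fell in TG to 2.62 and 1.91 CPM (log2 change -4.75, SE 0.93, adjusted p = 0.00527). Its size rests on TG day 0 replicate 2, without which the log2 change was -3.35, and it was -5.45 without replicate 1. Without TG day 3 replicate 1 the adjusted p was 0.0501. In PC LOC111878908 was at 0.788 and 0 CPM on day 0 and 3.1 and 3.62 CPM on day 3.

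LOC111919496 fell in TG from 18.5 and 25.2 to 1.58 and 1.16 CPM (log2 change -3.99, SE 0.36, adjusted p = 0.000102), to about the PC day 0 level of 1.21 and 1.25 CPM. CL kept more, at 8.35 and 7.32 CPM on day 3 after 53.8 and 28 CPM on day 0, and PC had 3.6 and 2.8 CPM. LOC111911480 fell in TG from 50.0 and 142 to 7.29 and 5.31 CPM (log2 change -3.93, adjusted p = 0.00102, and -2.98 without TG day 0 replicate 2). On day 3 PC had 8.09 and 6.08 CPM and CL 8.63 and 9.46 CPM, so that PC and TG overlapped, from 1.44 and 0.578 CPM in PC and 86.6 and 51.5 CPM in CL on day 0. LOC111907916 had 222 and 648 CPM in TG on day 0 and 28.6 and 65.5 CPM on day 3 (log2 change -3.21, SE 0.82, adjusted p = 0.0176). Its CL day 0 libraries differed widely, at 2083 and 384 CPM, and CL on day 3 had 153 and 168 CPM against 21.2 and 21 CPM in PC. Its TG call was lost without TG day 0 replicate 2 (log2 change -2.22, adjusted p = 0.11) or TG day 3 replicate 1 (adjusted p = 0.139) and with no filter on low counts (adjusted p = 0.0752), and the change was -3.92 without TG day 3 replicate 2. LOC111920155, also among the 10 highest scores, fell in TG from 28.2 and 59.9 to 2.16 and 8.38 CPM (log2 change -3.06, SE 0.73, adjusted p = 0.0131). Without TG day 0 replicate 2 the adjusted p was 0.0724 and the change -2.40, without TG day 3 replicate 1 they were 0.0905 and -2.37, with no filter on low counts the adjusted p was 0.0594, and without TG day 3 replicate 2 the change was -4.34. In PC LOC111920155 went from 1.62 and 0.241 to 8.99 and 10.6 CPM and in CL from 66.7 and 81.3 to 16.2 and 15.9 CPM.

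Among the genes already described, 3 also fell in TG. LOC111878839 fell from 664 and 504 to 90.5 and 151 CPM (log2 change -2.28, adjusted p = 0.0191), and LOC111878774 from 311 and 182 to 60.1 and 85.2 CPM (log2 change -1.76, adjusted p = 0.00149). LOC111903698 fell by a log2 change of -1.56 (SE 0.41, adjusted p = 0.0187), close to the CL change of -1.60. The TG calls of LOC111878839 and LOC111903698 were lost without TG day 0 replicate 1 (adjusted p = 0.0881 and 0.079) or TG day 3 replicate 1 (0.149 and 0.129), that of LOC111903698 also without TG day 3 replicate 2 (0.0559), and that of LOC111878839 also with no filter on low counts (0.068). The TG day 0 mean was above the CL day 0 mean for 5 of the 24 genes that fell and for 2 of the 74 that did not pass. On day 3 the TG mean of the 24 was below the CL mean for 21 and below the PC mean for 16, and it was above the PC day 0 mean for all 24. The same TG levels made the calls, so these counts describe the split and are not separate from it. The falls of 7 genes passed under all 18 alternative settings, those of LOC111889872, LOC111919496, LOC111911480, LOC111878774, LOC111892119, LOC111903273 and LOC111897501. The last was named after its values were seen and went in TG from 62.4 and 87.5 to 13.8 and 19.1 CPM (log2 change -2.18, adjusted p = 0.00015).

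The 2 genes that rose in TG were nearer to PC than to CL there on day 0, a level that also enters the call of a rise. LOC111884587 had 2.32 and 1.52 CPM in TG on day 0, as in PC at 1.88 and 1.2 CPM, and 6.86 and 4.06 CPM on day 3 (log2 change 1.50, SE 0.32, adjusted p = 0.00668). CL had 55.4 and 44.9 CPM on day 0 and 18.1 and 17.1 CPM on day 3, above both other cultivars, and PC had 8.15 and 8.06 CPM on day 3. Its adjusted p was 0.0609 without TG day 3 replicate 1 and 0.0667 when the TG groups were fitted alone. LOC111910770 went in TG from 28.1 and 14.2 to 36.8 and 43.3 CPM (log2 change 0.92, SE 0.29, adjusted p = 0.0408), in PC from 8.39 and 12.9 to 46.1 and 38.5 CPM and in CL from 161 and 161 to 58.8 and 58.1 CPM. Its call in TG was lost without any one of 9 libraries (TG day 0 replicate 2 and each TG day 3, PC day 3, CL day 0 and CL day 3 library), the adjusted p being highest at 0.18 without TG day 0 replicate 2, where the log2 change was 0.52. It was also lost when the TG groups were fitted alone (adjusted p = 0.115) and with the replicate number as a term (0.0563).

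Of the 74 genes that did not pass in TG, 70 had a TG day 0 mean between those of PC and CL, and the fitted change was a fall for 42 and a rise for 32. LOC111880600 had 16.8 and 21 CPM in TG on day 0 and 21.9 and 14.6 CPM on day 3 (log2 change -0.05, SE 0.32), and LOC111881488 had 2.66 and 2.33 CPM and 4.13 and 2.61 CPM. LOC111889409 stood at 20 CPM in both day 0 libraries and then 13.8 and 11 CPM, LOC111906468 at 32.4 and 52.5 CPM and then 22.8 and 14.5 CPM, and LOC111911889 at 3.84 and 6.89 CPM and then 1.97 and 2.99 CPM. For LOC111917376 the TG day 3 libraries lay on either side of day 0, at 79.7 and 20.9 CPM after 28.2 and 26.3 CPM. For LOC111919497 the TG day 0 libraries differed, at 22.1 and 1.92 CPM before 20.4 and 10.3 CPM, and without TG day 0 replicate 1 its log2 change was 3.00 (adjusted p = 0.00435), and without replicate 2 it was -0.51. Of the 5 genes with the highest mean CPM, 3 did not pass. LOC111879199 had a log2 change of -2.21 (adjusted p = 0.101), LOC111920812 of -2.19 (adjusted p = 0.189) and LOC111901153 of -1.79 (adjusted p = 0.29). All 3 passed as falls without PC day 0 replicate 1 and also without replicate 2 in its place, with adjusted p of at most 0.0419. So did LOC111906468 (adjusted p = 0.0127 in both fits) and LOC111911889 (0.0322 and 0.0315). With the TG groups fitted alone, LOC111879199 (adjusted p = 0.0137) and LOC111901153 (0.0316) passed, and LOC111879199 also passed with DESeq2 (0.0234).

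**Figure D5:**
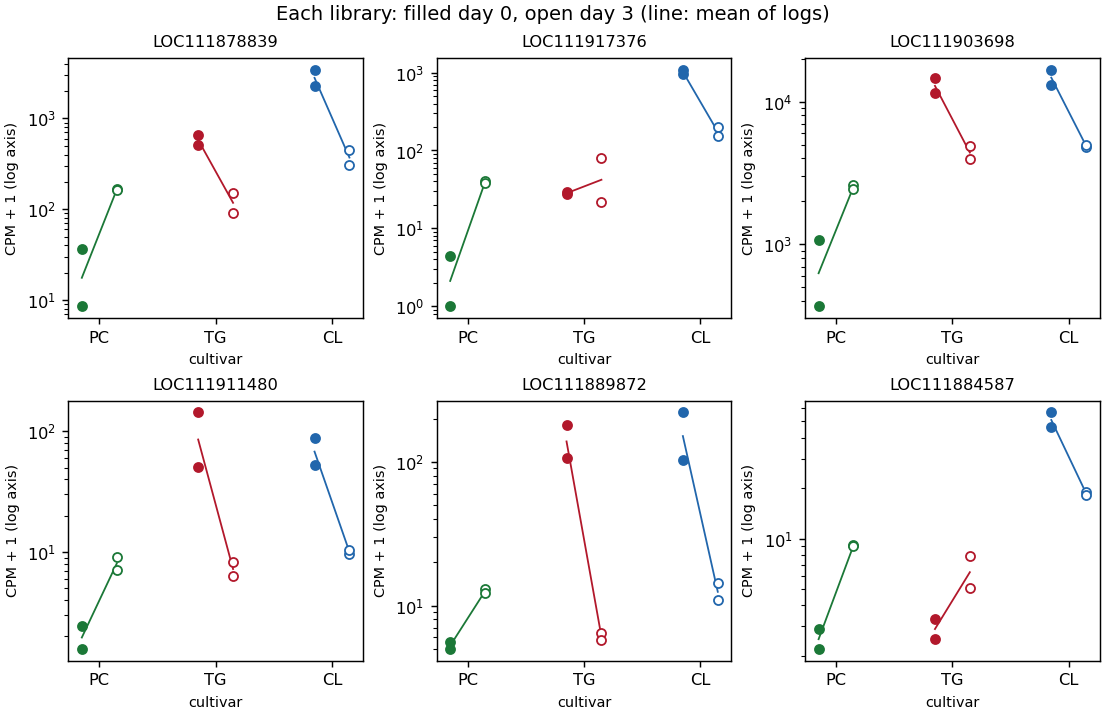
CPM + 1 in every library (log axis) for 6 of the genes by cultivar (x axis), filled for day 0 and open for day 3, with lines joining the means of the logs. All 6 rise in PC and fall in CL, as chosen, and in TG LOC111878839, LOC111903698, LOC111911480 and LOC111889872 fell, LOC111884587 rose and LOC111917376 did not pass.

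Genes of the set were direct neighbours on a chromosome in 2 cases, by the order of genes in the RefSeq annotation of assembly Lsat_Salinas_v11. LOC111892105 and LOC111892119 were next to each other. LOC111892105 went from 3.99 and 1.35 to 14 and 11.1 CPM in PC and from 30.7 and 41.8 to 9.04 and 10.8 CPM in CL. LOC111892119 went from 4.73 and 2.65 to 11.7 and 14 CPM in PC and from 30.2 and 37.4 to 10.6 and 10.5 CPM in CL. For both genes PC was above CL without overlap on day 3. In TG LOC111892105 fell from 11.3 and 19.4 to 4.97 and 4.85 CPM (log2 change -1.65, adjusted p = 0.0187) and LOC111892119 from 28 and 57.5 to 6.09 and 9.87 CPM (log2 change -2.42, adjusted p = 0.00173). Without TG day 0 replicate 2 these changes were -1.20 (adjusted p = 0.101) and -1.80 (adjusted p = 0.00708), and the call of LOC111892105 was also lost without TG day 3 replicate 1 (adjusted p = 0.108) or replicate 2 (adjusted p = 0.0846).

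The other neighbours were LOC111903273 and LOC111903272. LOC111903273 had the steepest CL fall of the 100 genes, from 63.6 and 60.4 to 2.27 and 1.63 CPM, and went in PC from 1.02 and 0.289 to 4.1 and 3.52 CPM. In TG it fell from 4.53 and 3.31 to 0.81 and 0.871 CPM (log2 change -2.22, SE 0.42, adjusted p = 0.00407). LOC111903272 had 0.859 and 0.563 CPM in CL on day 3, and fell in TG from 0.875 and 1.84 to 0.308 and 0.207 CPM (log2 change -2.38, adjusted p = 0.0146), a call lost without TG day 0 replicate 2 (log2 change -1.74, adjusted p = 0.0786) or either TG day 3 library (adjusted p = 0.065 and 0.0847), and when the TG groups were fitted alone (0.0751). All 4 neighbours fell in TG. Whether reads could be shared between neighbouring genes, as between near-identical copies, was not tested, because no sequences were used here. Among the 100, only LOC111882309 had its counts summed from more than 1 row of the deposited tables.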

How the data were processed

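Total RNA of lettuce midribs was read from both ends of each fragment on a HiSeq3000 instrument, per the labels. The authors deposited whole-number counts per NCBI GeneID, per the file headers, in tables of 64021 rows. Tools named in the submitters' processing notes are STAR 2.4.0i and featureCounts, besides Trim Galore, FastQC, DESeq2 and R 3.6.1, with no stated order. Neither build nor annotation is stated, nor whether strand was used (not given in the sources used here), so reads of overlapping or antisense genes may not be separable. Rows were summed per GeneID, giving 46150 GeneIDs, of which 40695 matched the NCBI name table of assembly Lsat_Salinas_v11. Of values of 100 or more, 68.4% to 74.6% were even, as when both mates of a pair are counted, so there are fewer fragments than counts.

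The day 2 values deposited by the authors, held here as a score, were only checked. The check used the rows whose day 0 and day 3 counts summed to 200 or more. A constant (-2 to 2) was added to the average of day 0 and day 3, and the result was multiplied by a factor (0.99 to 1.05). In each column 98.9% to 99.8% of these rows equalled that product to within 1 count.

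The 12 other libraries, 2 in each of 6 groups, were fitted together in edgeR 4.0.16 under R 4.3.3. filterByExpr by group kept 21757 genes, TMM factors scaled the library sizes, and each group had its own mean in a quasi-likelihood model with robust estimation. TG day 3 against day 0 was tested with Benjamini-Hochberg adjustment over all tested genes at 0.05. Standard errors were the absolute log2 change over the root of the F statistic. Levels are CPM on TMM-adjusted library size, and differences in level use a pseudocount of 1 CPM. Counts were also simulated for the 21757 genes, with 200 of them changed in TG and the others left unchanged there. The 200 were drawn from genes above a limit on fitted counts. The fit recovered 13% of 2-fold and 61% of 4-fold changes, with 5 false calls among 79. In the data 3000 genes fell and 2963 rose in TG, so the adjusted threshold was less strict there and these rates do not carry over. Alternatives were DESeq2 1.42.0, other scalings, no filter, only the groups compared, a replicate block, each library left out and other settings of the rule.

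The members, lists and tests were chosen with earlier results of these data known. Named genes are the 10 highest scores, the 3 on each side of the limit, up to 6 in each direction past the TG threshold, the 5 of highest mean CPM and neighbouring members, with exceptions stated. Functional and marker lists had been planned on product descriptions, which the sources used here do not give, so they were not applied.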

Additional observations from a re-analysis of the deposited data

Results flagged for a closer look

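The change from day 0 to day 3 went in opposite directions in TG and PC for 55 of the 100 genes, with both TG day 3 libraries below both day 0 libraries and both PC day 3 libraries above. It went in opposite directions in TG and CL for 20 genes, with both TG day 3 libraries above day 0 and both CL day 3 libraries below. The difference between cultivars was not tested for either, because the PC and CL directions chose the genes. Over all tested genes TG was lower on day 3 without overlap for 31.6% and higher for 33.6%.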

How the results depend on the processing

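The score limit kept 82 of the 100 genes on TMM-adjusted library sizes, 80 on DESeq2 size factors, 93 with a pseudocount of 0.5 and 81 with 5. Leaving out any one of the 8 PC and CL libraries, an alternative chosen after seeing the data, kept 50 (without PC day 0 replicate 1) to 96. The count of genes that fell in TG, 24, was 8 to 44 without any one library, and 18 to 31 under the other alternatives, including 23 for genes chosen on TMM-adjusted sizes, which was also chosen after seeing the data. The count that rose, 2, was 4 without a scaling factor, 4 with DESeq2, 1 with the replicate block and 0 in an edgeR fit of only the TG groups, where 10 rose at an unadjusted p under 0.05, and 0 to 10 without any one library. Over all tested genes 3000 fell and 2963 rose in TG. Without any one library 1203 to 3177 fell and 1435 to 3264 rose, and 1915 rose in the fit of only the TG groups. Without a scaling factor the median log2 change of all tested genes moved to 0.37 in CL and 0.10 in TG, from 0.04 and 0.01, and that of the 100 genes to -1.47 and -0.56, from -1.79 and -0.65. The replicate block (replicate number as a term) called 24 falls, 23 of them shared, and the rise of LOC111910770 did not pass (adjusted p = 0.0563). Replicate numbers share only a label, since the correlation of replicate differences between groups was -0.09 to 0.07 over 15 pairs of groups. Functional lists were not run. With 2 libraries a group, and PC day 0 libraries that differ in these genes, changes near 2-fold are poorly resolved.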
